A study of Zea mays with 21 samples.

Results

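Transcripts of 3 maize greening genes, Golden2 (G2, listed as gene:Zm00001d039260), its relative GLK1 (gene:Zm00001d044785) and oil yellow1 (oy1, gene:Zm00001d023536), were followed in every library of the series. They were picked by ID from a list of named genes and are 3 of the 50142 gene IDs in the count table. The libraries come from maize carrying the zb10 mutation, which the series title ties to loss of the plastid terminal oxidase (ZmPTOX), and from wild type (WT). Each of the 7 groups has 3 biological replicates. They are the white section of zb10 leaves, the green section of zb10 leaves and WT leaf at the V4 (4th-leaf) stage, zb10 leaf and WT leaf at the V9 (9th-leaf) stage, and zb10 endosperm and WT endosperm at 16 days after pollination (DAP). The labels name no section for the V9 leaf of zb10, and they give neither the allele, the inbred background nor how many plants went into a library.

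G2 and GLK1 encode transcription factors of the GARP family that switch on nuclear genes for chlorophyll synthesis and light harvesting. In maize, whose leaf divides photosynthesis between cell types, G2 is known for its role in bundle sheath cells, where its loss leaves the leaf pale, and GLK1 is known for transcripts in mesophyll cells. The oy1 gene encodes subunit I of magnesium chelatase, the enzyme that inserts magnesium into protoporphyrin IX at the entry to the chlorophyll branch, and its mutants have yellow-green leaves. In Arabidopsis, GLK genes are among the nuclear genes whose transcript level responds to the state of the plastid. The count table holds IDs only, and 0 of the 50142 IDs were found in the RefSeq gene table used here. The names therefore rest on the list of members, other chlorophyll genes and tissue markers were not analysed here by name, and no sequence or coordinate is given.

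Libraries held 28237880 to 53092962 counts each, apart from WT V9 replicate 1 with 123050963. Zm00001d001909, the candidate for the mutated gene, had 174, 160 and 150 counts in the white section and 237, 249 and 268 counts in the green section, against 2472, 2323 and 1984 counts in WT V4 leaf. At V9 it had 788, 762 and 645 counts in zb10 leaf, against 7790, 2759 and 3018 counts in WT leaf. It was thus lower in every zb10 leaf library than in every WT leaf library of the same stage. In endosperm it had 262, 156 and 248 counts in zb10, against 507, 438 and 692 counts in WT. That change was smaller and was not called (log2 fold change -1.03, SE 0.20, edgeR adjusted p = 0.445). White section replicate 3 stood apart from the other white libraries: 11.9% of its counts fell on its top 50 genes, against 17.3% in replicate 1 and 17.4% in replicate 2. It also had the lowest value of each of the 3 genes among the white libraries, so values without it are given below.

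The white section held less G2 transcript than WT leaf and than the green section, whereas the green section and WT leaf did not differ past the threshold. Levels are given as CPM, counts scaled to library size, with TMM factors over all libraries. G2 stood at 12.97, 15.82 and 8.47 CPM in the white section, at 27.7, 26.3 and 28.7 CPM in the green section and at 25.2, 25.9 and 22.5 CPM in WT leaf. Every white library was below every green and every WT library, and with TMM scaling the green libraries were all above the WT ones. By library size alone, green replicate 2 (898 counts of 35353855) was below WT replicate 1 (967 counts of 37292787). The means were 12.4 ± 3.71 CPM in white, 27.6 ± 1.19 CPM in green and 24.5 ± 1.79 CPM in WT (SD, n = 3 each). G2 was 1.91-fold lower in white than in WT (log2 fold change -0.93, SE 0.18, edgeR adjusted p = 0.0035) and 2.16-fold lower in white than in green (log2 fold change -1.11, SE 0.18, edgeR adjusted p = 0.0019). Green against WT gave a log2 fold change of 0.18 (SE 0.18, edgeR adjusted p = 0.76). With only the green and WT libraries in the fit, a setting chosen after seeing the data, it was 0.18 with an SE of 0.092 (edgeR adjusted p = 0.41). Without white replicate 3 the change from WT was -0.73 on the log2 scale (edgeR adjusted p = 0.0023).

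These calls have to be read against a leaf section in which many genes moved. Of 26871 genes tested, 31.5% were called between white and WT, with 14.9% lower in white, and 24.4% were called between white and green, with 10.9% lower in white. The share called between green and WT was 0.763%. Groups that do not overlap, as measured for G2 here, were found for 48.1% of genes tested in white against WT, 39.3% in white against green and 20.8% in green against WT. Within white against WT, 10.03% of genes tested had a lower log2 fold change than G2 and 14.1% a lower one than GLK1. In bulk tissue, fewer cells of a type and less RNA per cell cannot be told apart.

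**Figure D1:**
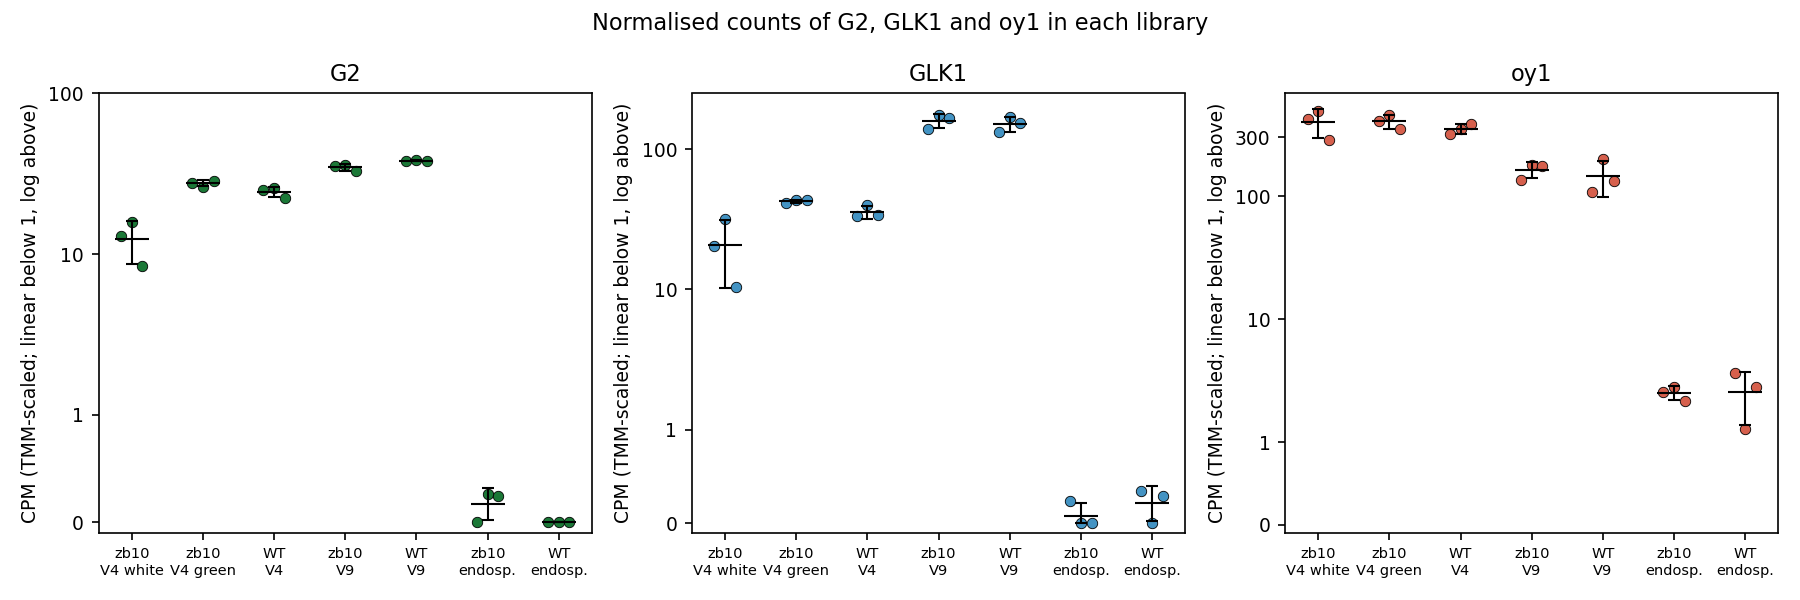
Each point is the level of a gene in 1 library, in CPM scaled by TMM (linear below 1, logarithmic above), and the bar and whiskers give the mean and SD of 3 libraries. G2 and GLK1 were lowest among leaf groups in the white section, GLK1 stood between 132 and 174 CPM in all V9 libraries, and oy1 was higher at V4 than at V9.

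GLK1, like G2, had its lowest leaf values in the white section, but with a wider spread. It was measured at 20.4, 31.6 and 10.4 CPM in the white section, at 41.4, 43.4 and 43.1 CPM in the green section and at 33.4, 40.1 and 33.8 CPM in WT leaf. No white library reached the lowest green or WT library, and the green libraries all lay above the WT ones, a separation whose share over all genes is the one given above. The means were 20.8 ± 10.6 CPM in white, 42.6 ± 1.08 CPM in green and 35.8 ± 3.73 CPM in WT (SD, n = 3 each). White against green passed the threshold (log2 fold change -1.0, SE 0.29, edgeR adjusted p = 0.031), and white against WT did not (log2 fold change -0.74, SE 0.29, edgeR adjusted p = 0.081). The call between white and green was lost on leaving out any green library or white replicate 1 (edgeR adjusted p of 0.068 to 0.082, log2 fold changes of -0.96 to -1.02).

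White replicates 2 and 3 moved the GLK1 value most. Without white replicate 2, the log2 fold change of GLK1 against WT was -1.17 and passed (edgeR adjusted p = 0.0055). Without white replicate 3 it was -0.42 (edgeR adjusted p = 0.096) and against green -0.68 (edgeR adjusted p = 0.021). DESeq2 called white against WT (log2 fold change -0.74, adjusted p = 0.035), and so did edgeR with the replicate numbers as a block (log2 fold change -0.81, adjusted p = 0.043). That block also ties WT libraries to the sections by number, for which the data gave no grounds. Deviations from the group means of same-numbered white and WT libraries correlated at -0.13, -0.20 and -0.08 across genes. Green against WT gave a log2 fold change of 0.26 for GLK1 (SE 0.29, edgeR adjusted p = 0.79) in the fit that also holds the white libraries. With only the green and WT libraries in the fit, a setting chosen after seeing the data, it was 0.26 with a smaller SE of 0.094 (edgeR adjusted p = 0.23).

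The chelatase gene oy1 was not called between the white section and either WT leaf or the green section. Its levels were 425, 488 and 283 CPM in the white section, 406, 454 and 347 CPM in the green section and 319, 353 and 383 CPM in WT leaf. The groups overlapped in each pairing, and white replicate 3 was the lowest of all V4 libraries while the other white libraries were above every WT library. White against WT gave a log2 fold change of 0.23 (SE 0.19, edgeR adjusted p = 0.40), and white against green gave 0.02 (SE 0.19, edgeR adjusted p = 0.95). For green against WT it was 0.21 (SE 0.19, edgeR adjusted p = 0.73), and 0.20 with only these 2 groups in the fit (SE 0.12, edgeR adjusted p = 0.49). Without white replicate 3 the change from WT was 0.42 and just passed (edgeR adjusted p = 0.0497). In all, 1 of the 3 genes was called lower in white than in WT, where 14.9% of all genes tested were. Against green, 2 of 3 were called lower in white, where 10.9% of all genes tested were. None of the 3 was called higher in either.

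The white libraries kept the same order for the 3 genes, with replicate 2 highest and replicate 3 lowest each time. Set beside the green library of the same number, G2 in white was 0.469, 0.601 and 0.295 times the green level in replicates 1, 2 and 3. GLK1 in white was 0.492, 0.727 and 0.242 times the green level, and oy1 was 1.05, 1.08 and 0.817 times that level. G2 and GLK1 were below the green library in each of the 3 numbered pairs, and oy1 was above it in 2 of 3. For G2 and GLK1 any pairing would give this, since every white library was below every green one. With the numbers as a block and the sections fitted alone, G2 gave a log2 fold change of -1.16 (edgeR adjusted p = 0.0067) and GLK1 gave -1.13 (edgeR adjusted p = 0.025).

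**Figure D2:**
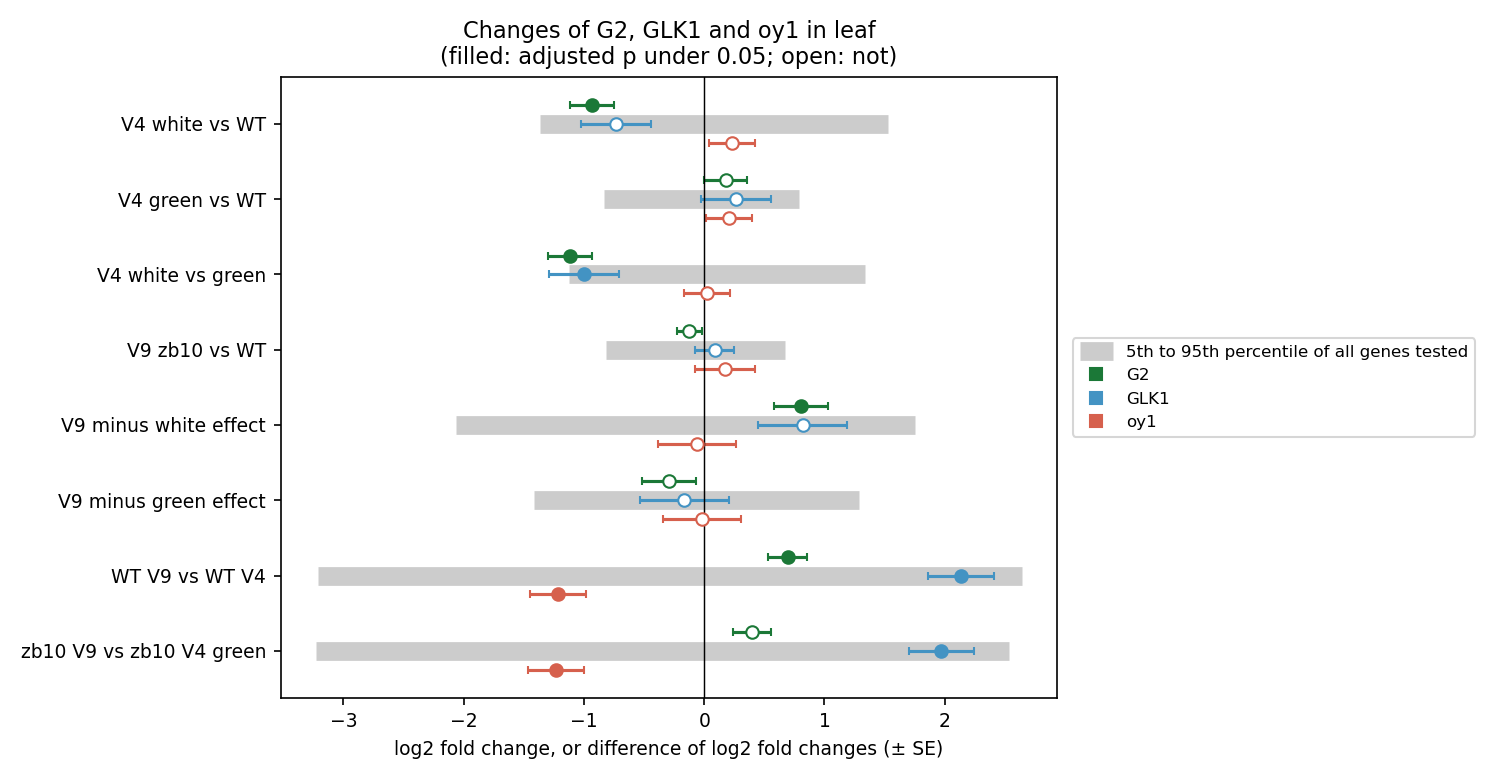
Points are log2 fold changes, or differences of log2 fold changes for the comparisons named minus, with SE; filled points passed an adjusted p of 0.05, and grey bars span the 5th to 95th percentile of all genes tested. G2 was lower in white than in WT and green, GLK1 was lower in white than in green, and among leaf comparisons GLK1 and oy1 changed most between stages.

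Ratios of counts within a library do not depend on scaling between libraries. The oy1 count was 32.7, 30.8 and 33.4 times the G2 count in the white section, 14.7, 17.2 and 12.1 times in the green section and 12.6, 13.6 and 17.0 times in WT leaf. The white libraries agreed closely with each other, replicate 3 included, and lay above all other V4 libraries. How many other gene pairs separate in this way was not measured. The ratio uses the same counts as the tests of G2 and oy1 above, so it is not separate support for them. On the log2 scale the ratio averaged 5.01 ± 0.06 in white, 3.86 ± 0.26 in green and 3.84 ± 0.22 in WT (SD, n = 3 each). White exceeded WT by 1.17 and green by 1.16, with an exact two-sided permutation p of 0.1 for each, the smallest that 3 against 3 libraries allow. Over the 10 ratio comparisons made, the adjusted value was 0.25 for both. These ratios compare groups and say nothing of which gene is more abundant, since gene lengths were not used.

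The G2 count was 0.637, 0.502 and 0.814 times the GLK1 count in the white section, 0.669, 0.607 and 0.667 times in the green section and 0.755, 0.646 and 0.666 times in WT leaf. The white libraries lay on both sides of the others. The mean log2 ratio differed by -0.11 between white and WT (exact permutation p = 0.7) and by -0.02 between white and green (exact permutation p = 1), where 3 against 3 libraries cannot give a p below 0.1, so these p-values do not show that the 2 genes changed equally.

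**Figure D3:**
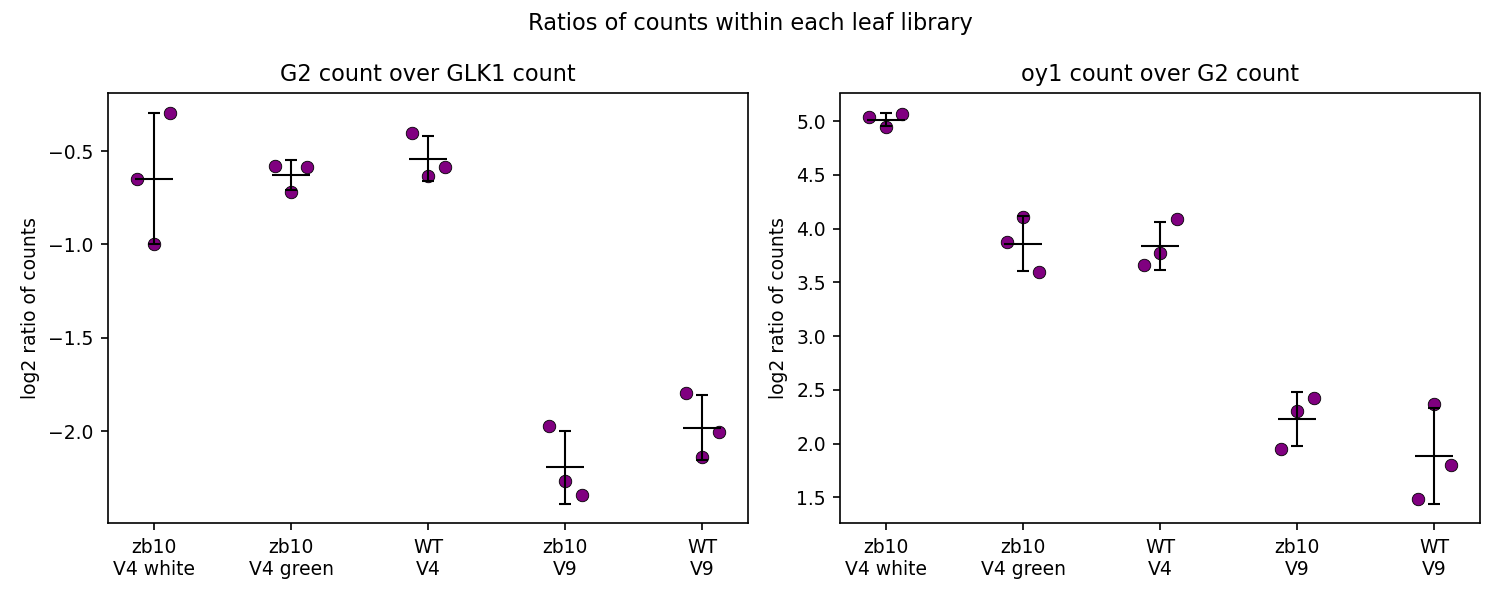
Each point is the log2 ratio of the counts of 2 genes in 1 leaf library, with the mean and SD of 3 libraries. The ratio of oy1 to G2 was highest in the white section at about 5, and the ratio of G2 to GLK1 was near -2 in both V9 groups and above -1 in all V4 groups.

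At V9, no member was called between zb10 and WT leaf, where 0.046% of 26105 genes passed. G2 was at 35.3, 36.1 and 32.7 CPM in zb10 leaf, against 38.1, 38.4 and 38.0 CPM in WT leaf. All zb10 values lay just below the WT ones, with a log2 fold change of -0.12 (SE 0.11, edgeR adjusted p = 0.84), and 12.9% of genes tested did not overlap between these groups. By library size alone the groups overlapped, with zb10 replicate 1 (2066 counts of 53092962) above WT replicate 2 (1236 counts of 32482762). GLK1 was at 138, 174 and 166 CPM in zb10 leaf, against 132, 169 and 153 CPM in WT leaf (log2 fold change 0.09, SE 0.16, edgeR adjusted p = 0.93). For oy1 the values were 136, 179 and 176 CPM in zb10 leaf, against 107, 199 and 133 CPM in WT leaf (log2 fold change 0.17, SE 0.25, edgeR adjusted p = 0.90). Both of these genes overlapped between genotypes, and without WT replicate 1, the deepest library, their log2 changes were -0.015 for GLK1 and -0.021 for oy1. Without WT replicate 2 they were 0.19 for GLK1 (edgeR adjusted p = 0.62) and 0.47 for oy1 (edgeR adjusted p = 0.31).

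The test of the mutant effect itself between V9 and V4 changes the stage and the section sampled together. The G2 effect at V9 was 0.80 higher on the log2 scale than that of the white section (SE 0.23, edgeR adjusted p = 0.034). That of GLK1 was 0.82 higher (SE 0.37, edgeR adjusted p = 0.18) and that of oy1 was -0.06 (SE 0.32, edgeR adjusted p = 0.95). Of 28513 genes tested, 11.3% were called in this comparison, with 4.85% higher at V9. The G2 call was lost on leaving out WT V4 replicate 1 or 2, WT V9 replicate 1 or 3, or zb10 V9 replicate 1 or 2 (edgeR adjusted p of 0.053 to 0.079, differences of 0.77 to 0.85). For GLK1 the difference was 1.30 and passed without white replicate 2 (edgeR adjusted p = 0.018). Between V9 and the green section the differences were -0.29 for G2, -0.17 for GLK1 and -0.02 for oy1 (edgeR adjusted p of 0.75, 0.95 and 1.0), where 0.00351% of genes were called.

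Between stages the 3 genes parted. In WT leaf, GLK1 was 4.40-fold higher at V9 than at V4, with means of 151 ± 18.5 CPM at V9 and 35.8 ± 3.73 CPM at V4 (SD, n = 3 each; log2 fold change 2.14, SE 0.27, edgeR adjusted p = 2.5e-05). G2 was 1.62-fold higher, at 38.1 ± 0.25 CPM at V9 and 24.5 ± 1.79 CPM at V4 (log2 fold change 0.69, SE 0.16, edgeR adjusted p = 0.0028). By contrast, oy1 was 2.32-fold lower at V9, at 146 ± 47.4 CPM against 352 ± 32.2 CPM at V4 (log2 fold change -1.21, SE 0.23, edgeR adjusted p = 0.00077). The stages did not overlap for any of the 3 genes, but the share of all genes without overlap was not measured between stages. Calls were common here, at 44.6% of 28513 genes tested, with 23.3% higher and 21.3% lower at V9, and the calls of the 3 genes held on leaving out any library of either group.

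Among all genes in that comparison, 93.1% had a lower log2 fold change than GLK1, 77.0% a lower one than G2 and 15.2% a lower one than oy1. The count ratios moved with them. The G2 count was 0.288, 0.227 and 0.249 times the GLK1 count in WT V9 leaf, against 0.755, 0.646 and 0.666 times in WT V4 leaf, a log2 difference of -1.44. The oy1 count was 2.81, 5.17 and 3.50 times the G2 count at V9, against 12.6, 13.6 and 17.0 times at V4, a log2 difference of -1.95. Neither ratio overlapped between stages (exact two-sided permutation p = 0.1 for each, adjusted value 0.25), and the share of other gene pairs without overlap was not measured.

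**Figure D4:**
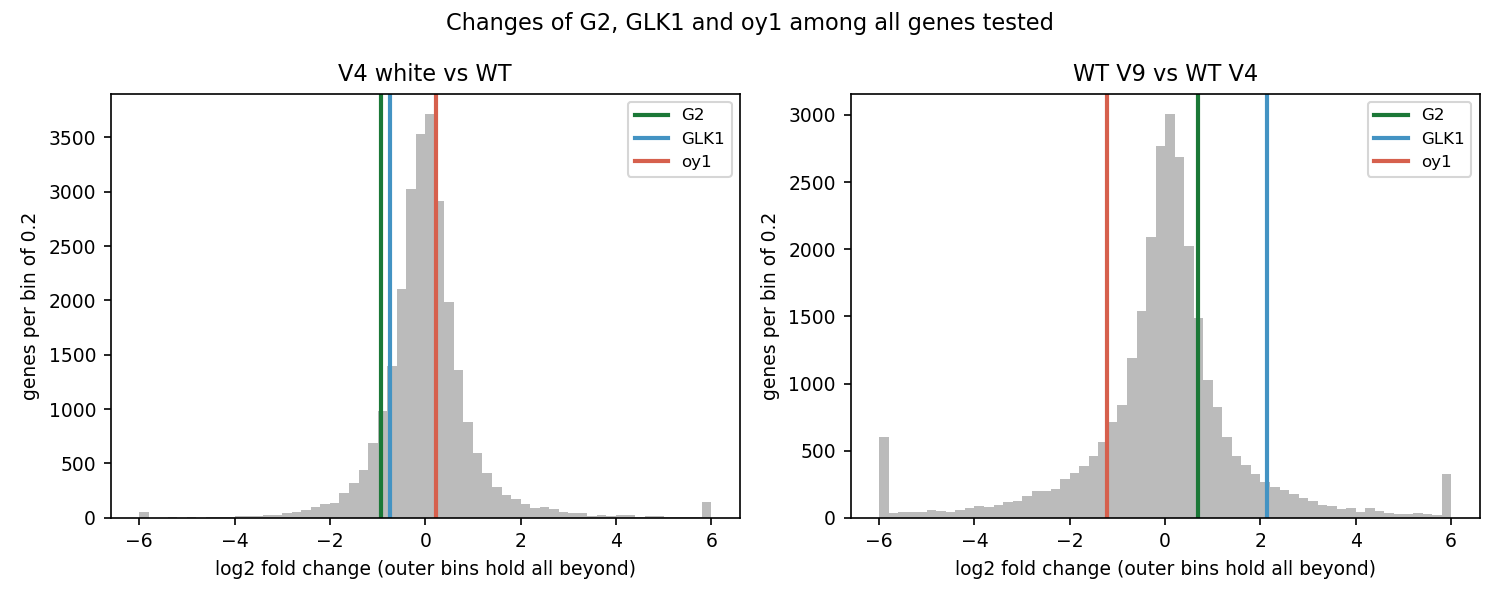
Grey bars count genes by log2 fold change in bins of 0.2, with the outermost bins holding all genes beyond them, and vertical lines mark the 3 genes. In white against WT, G2 at -0.93 and GLK1 at -0.74 lie left of the centre and oy1 at 0.23 right of it, whereas in WT V9 against V4, GLK1 lies at 2.14 and oy1 at -1.21.

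Within zb10 the same directions were measured between V9 leaf and the V4 green section. This comparison shares no library with the WT one, but both came from the same fit of all leaf libraries. Their SEs and adjusted p-values are therefore not independent. GLK1 was 3.92-fold higher at V9, at 159 ± 18.5 CPM against 42.6 ± 1.08 CPM in V4 green (SD, n = 3 each; log2 fold change 1.97, SE 0.27, edgeR adjusted p = 5.3e-05). The oy1 gene was 2.35-fold lower at V9, at 164 ± 23.9 CPM against 402 ± 53.6 CPM in V4 green (log2 fold change -1.23, SE 0.23, edgeR adjusted p = 0.00072). For G2 the values were 34.7 ± 1.79 CPM at V9 and 27.6 ± 1.19 CPM in V4 green. These groups did not overlap, a separation whose share over all genes was not measured here. The change missed the threshold (log2 fold change 0.40, SE 0.16, edgeR adjusted p = 0.053). In this comparison 44.7% of genes were called, 23.4% higher and 21.3% lower at V9. With library size as the only scaling G2 passed (log2 fold change 0.44, adjusted p = 0.023). The difference between the genotypes in this stage change is the comparison of V9 with the green section given above, which none of the 3 genes passed.

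In endosperm the 2 transcription factor genes were at the limit of detection. G2 had 0, 7 and 6 counts in zb10 endosperm and 0, 0 and 0 counts in WT endosperm, and both sets were under the count filter. In WT, G2 was at least 1238-fold lower in endosperm than in V9 leaf taking 3 counts over the group as the floor, and in zb10 the summed counts were 226-fold lower (95% counting interval 132 to 425). Without zb10 endosperm replicate 1, which had 0 counts, the fold in zb10 was 138, and without WT endosperm replicate 3 the bound in WT was at least 767-fold. GLK1 had 8, 0 and 0 counts in zb10 endosperm and 11, 0 and 11 counts in WT endosperm, also under the filter. Summed, GLK1 was 1661-fold lower than in V9 leaf in zb10 (interval 843 to 3847) and 630-fold lower in WT (interval 416 to 1006). All 8 counts in zb10 came from replicate 1, and without that library GLK1 was at least 2706-fold lower in zb10 endosperm, by the same floor. These intervals and the floor cover counting error only.

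A low level of oy1 transcript was present in every endosperm library. It was at 2.56, 2.84 and 2.18 CPM in zb10 endosperm, against 3.63, 1.29 and 2.81 CPM in WT endosperm, from 54 to 84 counts in zb10 and 37 to 115 counts in WT. The genotypes overlapped (log2 fold change 0.02, SE 0.37, edgeR adjusted p = 1.0), where 0.0355% of 25366 genes were called. Against V9 leaf, oy1 was lower in zb10 (log2 fold change -6.0, edgeR adjusted p = 3.6e-08) and in WT (log2 fold change -5.80, edgeR adjusted p = 3.8e-08). Of 30640 genes tested between these tissues, 74.6% were called in zb10 and 76.4% in WT, with 37.4% and 38.3% lower in endosperm.

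Ordered by level, G2 was highest in V9 leaf, then in the green section and WT leaf at V4, then in the white section and last in endosperm. Its leaf groups did not overlap between neighbours in this order with TMM scaling. However, zb10 against WT at V9 and green against WT at V4 missed the threshold and overlapped by library size alone. GLK1 had the same order of tiers, with V9 zb10 and WT overlapping. For oy1 the 3 V4 groups came first and overlapped with each other, followed by the overlapping V9 groups and the overlapping endosperm groups. The ranges of neighbouring tiers did not overlap for oy1. How many of all genes show such separated tiers was not measured.

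Likeness of pattern was measured as Pearson's correlation of log2(CPM + 0.5), as a description without a test, since the libraries of a group share their stage and tissue. Over the 15 leaf libraries and 16682 other genes, Zm00001d007072 (r = 0.97) and Zm00001d035367 (r = 0.96) were most like G2. Zm00001d007072 averaged 73.0 CPM in white, 152 CPM in green and 150 CPM in WT V4 leaf, and 201 CPM in zb10 and 224 CPM in WT V9 leaf. Zm00001d017767 and Zm00001d036875 were most like GLK1 (r = 0.99 for each), and Zm00001d002240 and Zm00001d002426 were most like oy1 (r = 0.98 for each). G2 and GLK1 correlated at 0.90 with each other, and oy1 at -0.60 with G2 and -0.78 with GLK1, where 18.04% and 13.5% of genes had a lower correlation with G2 and with GLK1. Over all 21 libraries oy1 correlated at 0.93 with G2 and 0.87 with GLK1. The gap between leaf and endosperm enters those values, and the most alike IDs over these libraries were Zm00001d007072 and Zm00001d052401 for G2, Zm00001d013795 and Zm00001d053177 for GLK1, and Zm00001d017118 and Zm00001d002426 for oy1 (r = 0.995 to 0.998). By Spearman's correlation, none of these was among the 2 IDs most like each gene.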

How the data were processed

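RNA-seq counts from 21 libraries of maize leaf and endosperm were used. The authors deposited raw counts per gene in 1 table; not given in the sources used here are the aligner, counting tool, strand setting, build and annotation, so reads shared by near-identical copies may have been split. Per the labels' protocols, RNA came from a column kit and libraries from a SMARTer mRNA kit. Columns call the mutant zb9 and the younger leaf 3L, and these were assigned to the single group of the labels that each name could stand for; 0 columns were left without a sample. Replicates are biological per the series design, and none agreed within sampling noise. The members, tests and named gene rules were chosen with earlier results of these data known.

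The test was the quasi-likelihood F-test of edgeR 4.0.16 (R 4.3.3) with TMM scaling, on genes kept by filterByExpr (minimum count 10, minimum total 15), with Benjamini-Hochberg adjustment over all genes tested and a threshold of 0.05. Fits held the V4 libraries, the V9 libraries, the endosperm libraries, all leaf libraries (stages and differences of effects) or V9 leaf with endosperm. Standard errors were derived from the F statistic. Count ratios had 0.5 added to each count and an exact two-sided permutation test. The fits were tested on simulated data. Named genes were the 3 members, the candidate for the mutated gene, and the 2 IDs most correlated with each member among genes with a mean log2(CPM + 0.5) of at least 2. Alternatives covered scaling, the filter, DESeq2 1.42.0, a replicate block, which libraries entered the fit and removal of each library in turn. Deviations from the group means of same-numbered white and green libraries correlated at 0.18, 0.17 and 0.36 across genes, so the numbers were taken to pair these sections. The labels themselves only give numbers, so this pairing rests on the data. Among the pairs of groups compared in this way, no other correlated positively by number in every replicate. Not every pair of groups was compared. The main tests of white against green and the permutation tests of the ratios treated the libraries as unpaired. The replicate numbers entered only in the alternatives with a block and in the numbered pairs set side by side.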

Additional observations from a re-analysis of the deposited data

Results flagged for a closer look

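The mutant effect on G2 differed between V9 leaf and the V4 white section by an interaction contrast, at 0.80 on the log2 scale (SE 0.23, edgeR adjusted p = 0.034). The stage and the section sampled differ together there, and their parts cannot be told apart. The contrast passed in 11.3% of all genes tested, and the G2 difference had the same sign in each of the 18 alternatives run (0.60 to 1.07). The call was lost in 7 of them, on leaving out any of 6 libraries and with all 21 libraries in the fit (edgeR adjusted p of 0.053 to 0.14). The lowest and highest values came without white replicate 3 and without white replicate 2.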

How the results depend on the processing

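Of the 31 gene results, 19 kept their direction and side of the threshold in every alternative, among them both calls of G2 in the white section and the stage calls in WT. For the others the cause was not tested. GLK1 in white against WT passed with DESeq2 (log2 fold change -0.74) and with the replicate block (-0.81), and its call in white against green was lost with all 21 libraries in the fit (-1.01, adjusted p = 0.051) or the compared groups alone (-1.01, adjusted p = 0.061), the last chosen after seeing the data. The G2 difference between V9 and white was 0.82 with all 21 libraries (adjusted p = 0.14), and G2 in zb10 V9 against green was 0.44 and passed with library size alone. The changes of oy1 that reversed were -0.015 in white against green with the sections alone and a replicate block, -0.036 in endosperm with all 21 libraries, and 0.031 and 0.024 in V9 minus green with library size alone and with the block. The replicate block changed no other call of the 3 genes, and only the white and green sections had grounds for pairing by number. On leaving out 1 library, log2 values ran from -1.17 to -0.42 for GLK1 and 0.054 to 0.42 for oy1 in white against WT, and from -1.44 to -0.68 for GLK1 and -0.15 to 0.21 for oy1 in white against green. They ran from -0.015 to 0.19 for GLK1 and -0.021 to 0.47 for oy1 at V9, and from -0.29 to 0.34 for oy1 in endosperm. For V9 minus white they ran from 0.60 to 1.07 for G2, 0.50 to 1.30 for GLK1 and -0.25 to 0.22 for oy1, and for V9 minus green from -0.20 to 0.25 for oy1. The ratio of G2 to GLK1 ran from -0.28 to 0.067 in white against WT and -0.20 to 0.15 in white against green, and that of oy1 to G2 from -0.10 to 0.15 in green against WT.

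Counts of all genes called moved over 1.5 times under some settings in these comparisons, and the ranges given also hold counts that moved less. Green against WT gave 205 genes, against 927 with DESeq2, 459 with the groups alone, 120 with the block, 75 with all 21 libraries and 40 to 90 on leaving out 1 library. V9 gave 12, against 243 with DESeq2, 63 with all 21 libraries, 23 with no filter, 3 with the block and 5 to 146 on leaving out 1 library. Endosperm gave 9, against 118, 15, 27, 3 and 0 to 13 under the same settings, and V9 minus green 1, against 332, 6, 2, 3 and 0 to 154. V9 minus white gave 3228, against 2046 to 3918 on leaving out 1 library, where only counts at the low end moved so far. With DESeq2 it gave 4842, which is 1.5 times and not over. Scaled by library size alone, the median log2 fold change of all genes was 0.14 in white against WT, where G2 was at -0.82, GLK1 at -0.63 and oy1 at 0.35, and the share of calls that were higher was 69.1% against 52.8%. That share was 73.5% against 55.2% in white against green and 30.9% against 42.8% in V9 minus white. In V9 against WT it was 39.1% with DESeq2 against 75%. Depth limits the endosperm values of G2 and GLK1, whose folds without each library were added after seeing the data.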
